A study of Mus musculus with 4 samples.

Results

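Cryab and 9 other heat shock genes were read across 4 mouse oral cancer cell lines. The 10 genes were Cryab, Hspb1, Hspb2, Hspb8, Bag3, Hspa1a, Hspa1b, Hspa8, Dnajb1 and Hsph1, out of 34685 genes listed in the expression table. They were chosen by name, with their levels in these lines already known, so what follows is a description of the members. Mouse 3 gave the lines AOC3 and AOC3-LN, and mouse 11 gave AOC11 and AOC11-LN. AOC3 and AOC11 came from the primary tumor of the oral cavity, and the lines marked LN from a lymph node metastasis of the same mouse. All 4 lines arose in C57BL/6 mice after the carcinogen DMBA was applied to the buccal mucosa. All were also grown as a subcutaneous tumor in a C57BL/6 mouse and depleted of fibroblasts before they became lines. The age and sex of the animals were not used here. RNA was taken from cultured cells without drug or heat treatment named in the labels. Each line gave 1 library, so the values carry no replicate error and the differences between lines could not be tested against one. No p-values are given for that reason. The lines of 1 mouse share their origin and are not independent mice.

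Heat shock proteins keep other proteins from aggregating and help them fold. Small heat shock proteins such as alpha B-crystallin (Cryab) and HSP27 (Hspb1) hold unfolded clients without using ATP and bind intermediate filaments. The HSP70 machine then refolds the clients or passes them to degradation, with a J-domain partner (Dnajb1) that delivers them and exchange factors (Hsph1, Bag3) that release them. Bag3 also joins Hspb8 to HSP70 in selective autophagy. Hspa8 is the constitutive HSP70 of the cytosol, whereas Hspa1a and Hspa1b are known for induction by heat through HSF1. Cryab is best known from the lens and from muscle.

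Levels were given in FPKM, the number of fragments divided by the length of the transcript and the size of the library, so levels of different genes can be set side by side. Differences were taken on log2(FPKM + 1) after quantile normalization, among 14155 genes that reached 1 FPKM in some line. All 10 members did so, although Hspb2 passed only through AOC11, where it was highest, and Cryab came near that level in AOC3-LN. From steps in the low FPKM values, the libraries were estimated at 28320000 to 33860000 fragments. The estimate was approximate, since 71.1% to 74.1% of low values lay within 0.1 of a whole number of fragments. The lines carried the markers of epithelial cells, with all 10 listed markers at 1 FPKM or more in some line and summed levels of 3347 to 3836 FPKM, led by Krt18. None of the 8 fibroblast, 6 endothelial or 7 lens markers reached 1 FPKM in any line.

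Among the members detected in every line, Cryab had the widest spread of levels. Its gene lies at chr9:50751325-50756636 on the plus strand (mm10; ENSMUSG00000032060.10). The level was 4.00, 1.21, 101 and 34.3 FPKM in AOC3, AOC3-LN, AOC11 and AOC11-LN. Both AOC11 lines were far above both AOC3 lines, and in each mouse the lymph node line was the lower of the pair. AOC11 was 25.3-fold above AOC3, AOC11-LN was 28.3-fold above AOC3-LN, and the highest line was 83.6-fold above the lowest. The level in AOC3 was 3.31-fold that in AOC3-LN, and the level in AOC11 was 2.95-fold that in AOC11-LN. About 91.7, 23.7, 2261 and 763 fragments stood behind these values, in the order in which the lines are given above. At that depth the 95% Poisson interval of the level was 3.23 to 4.92 FPKM in AOC3 and 0.787 to 1.83 FPKM in AOC3-LN, which covers counting error only. Among the 14155 genes, Cryab stood at the 92.6 percentile of level in AOC11 and the 77.5 percentile in AOC11-LN, and at 29.4 and 14.4 in AOC3 and AOC3-LN.

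**Figure D1:**
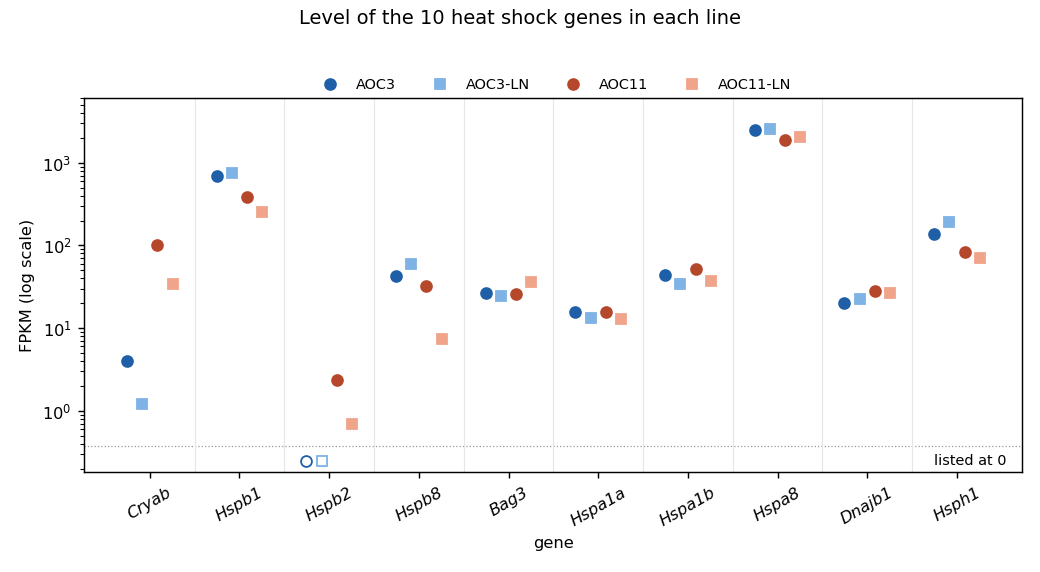
The plot gives the FPKM level (log scale) of each of the 10 genes in each of the 4 lines, 1 point per library, with circles for primary and squares for lymph node lines and open symbols for values listed at 0. Cryab runs from 1.21 to 101 FPKM, while Hspa8 stays between 1884 and 2555 FPKM.

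On the log2 scale Cryab was lower in the AOC3 lines by a mean difference of -4.13. It ranked 17 from the lowest among 14155 genes, and 0.304% of genes had a difference as large in either direction. The difference was -4.38 between the primary lines and -3.88 between the lymph node lines. Leaving out 1 line at a time gave -4.90 to -3.36. The lymph node line minus the primary line was -1.05 in mouse 3 and -1.55 in mouse 11. Cryab was the only member lower by more than 1 log2 unit in both lymph node lines, and it was 1 of 55 such genes (0.389% of all genes). The values of Cryab were known beforehand, so this count is a description and no test.

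Hspb2, a small heat shock protein known from muscle, lies beside Cryab at chr9:50751078-50752354 on the minus strand (ENSMUSG00000038086.4). It was listed at 0 in AOC3 and AOC3-LN, at 2.36 FPKM in AOC11 and at 0.685 FPKM in AOC11-LN. The 2 lines with Hspb2 were thus the 2 lines with high Cryab, and they kept the same order. Hspb2 was 2.34% of the Cryab level in AOC11 and 2.00% in AOC11-LN. At these ratios AOC3 would hold 1.56 or 1.34 fragments of Hspb2 and AOC3-LN 0.405 or 0.347, below the 3 fragments that a count of 0 allows. The values of 0 in the AOC3 lines therefore do not exclude Hspb2 at the same share of Cryab. The 3-fragment limit corresponds to 0.179 FPKM in AOC3 and 0.209 FPKM in AOC3-LN. The log2 difference between the mice was -1.22, and it depended on the pseudocount, with -3.69 at a pseudocount of 0.1. Without AOC11 it was -0.62, short of 1 log2 unit.

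The annotated exons of Cryab and Hspb2 overlap on opposite strands. The overlap was 252 bases, 17.0% of the exonic bases of Cryab and 30.2% of those of Hspb2. It came from 1 of the 6 annotated Cryab transcripts. The start of transcript Cryab-201 lies 552 bases beyond the upstream end of Hspb2, and the genes are read in opposite directions from there. The libraries were made with a strand-marking kit, but the methods state default parameters for the mapping and for Cufflinks, and these defaults do not use strand. Fragments in those 252 bases then cannot be assigned to 1 of the genes, so the low Hspb2 values are uncertain.

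The other genes lying wholly within 50 kb of Cryab did not show a difference of its size. The gene 2310030G06Rik was at 11.3, 6.66, 18.8 and 16.6 FPKM in AOC3, AOC3-LN, AOC11 and AOC11-LN, a log2 difference between the mice of -0.87. The gene 1110032A03Rik was at 12.1, 10.2, 5.30 and 8.15 FPKM, a difference of 0.74 in the other direction. Fdxacb1 was at 1.80, 2.25, 2.52 and 4.13 FPKM, a difference of -0.44. None of these 3 neighbors passed 1 log2 unit in the mean over both lines of each mouse. Between the primary lines alone, 1110032A03Rik was at 1.07. Between the lymph node lines alone, 2310030G06Rik was lower in AOC3-LN by more than 1 log2 unit. The order of the lines in 2310030G06Rik was also that of Cryab, with far smaller differences. Dixdc1 and Alg9, which reach beyond the window, had differences of -0.47 and -0.14.

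**Figure D2:**
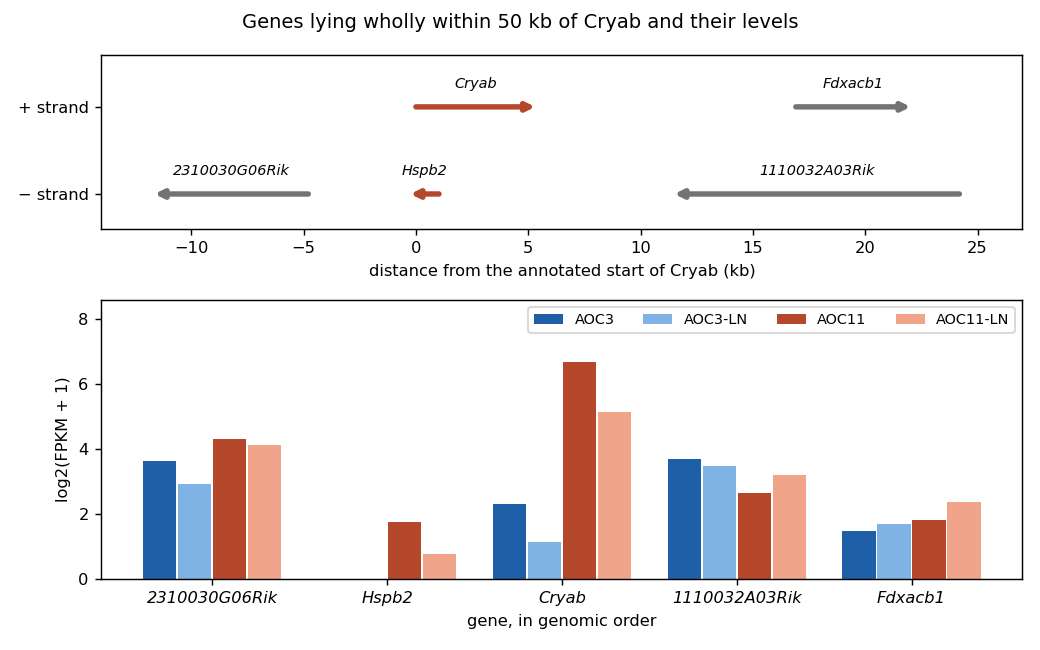
The upper panel maps the genes lying wholly within 50 kb of Cryab by strand against distance from the annotated start of Cryab (kb), and the lower panel gives log2(FPKM + 1) of each as 1 bar per line. Cryab and Hspb2 are red in the map. The bars of Cryab are much higher in AOC11 and AOC11-LN, and Hspb2 has low bars in these lines and none in AOC3 and AOC3-LN.

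Hspb1 was the most abundant small heat shock protein gene in every line. It lies at chr5:135887919-135889563 on the plus strand (ENSMUSG00000004951.10). Its level was 701, 744, 386 and 256 FPKM in AOC3, AOC3-LN, AOC11 and AOC11-LN, so both AOC3 lines were above both AOC11 lines, opposite to Cryab. The log2 difference was 1.30 between the mice, 0.94 between the primary lines and 1.65 between the lymph node lines. Without AOC11-LN it was 1.01. Hspb1 also has copies elsewhere, and 44.0% of its 100-base stretches occur in Hsp25-ps1 or, on the opposite strand, in Gm9817. Hsp25-ps1 was listed at 4.58, 6.25, 1.70 and 1.28 FPKM in AOC3, AOC3-LN, AOC11 and AOC11-LN, and Gm9817 at 25.03, 23.7, 8.42 and 9.18 FPKM. Both were higher in the AOC3 lines, as Hspb1 was, and reads of the shared stretches cannot be assigned with certainty.

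Hspb8, the Bag3 partner in selective autophagy, was set apart by 1 line. It lies at chr5:116408491-116422864 on the minus strand (ENSMUSG00000041548.4). Its level was 42.9, 60.2, 31.9 and 7.37 FPKM in AOC3, AOC3-LN, AOC11 and AOC11-LN. AOC11-LN was low, and the other 3 lines lay between 31.9 and 60.2 FPKM. The difference between the mice was 1.70 log2 units, but it was 0.71 without AOC11-LN and 2.69 without AOC11. The lymph node line differed from the primary line by 0.47 in mouse 3 and by -1.98 in mouse 11, where Hspb8 ranked 104 from the lowest of all genes. Bag3 itself (chr7:128523616-128546981, plus strand, ENSMUSG00000030847.8) was at 26.7, 24.2, 25.9 and 36.1 FPKM in AOC3, AOC3-LN, AOC11 and AOC11-LN. Its highest value was thus in the line where Hspb8 was lowest. The ratio of Hspb8 to Bag3 level was 1.61, 2.48, 1.23 and 0.204 in the same order of lines. The lines of the mice overlapped in Bag3, and the log2 difference between the mice was -0.18.

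The make-up of the small heat shock protein transcripts differed between the mice. The summed level of the 11 genes listed under this name was 776, 826, 558 and 339 FPKM in AOC3, AOC3-LN, AOC11 and AOC11-LN. Hspb1 made up 90.3%, 90.0%, 69.2% and 75.6% of that sum in these lines. Cryab made up 0.516% and 0.147% in AOC3 and AOC3-LN, against 18.1% and 10.1% in AOC11 and AOC11-LN. There were 175 FPKM of Hspb1 per FPKM of Cryab in AOC3 and 615 in AOC3-LN, but 3.82 in AOC11 and 7.48 in AOC11-LN. The other listed genes that passed the filter were Hspb6 and Hspb11. Hspb6 was at 15.8, 12.6, 15.8 and 18.6 FPKM in AOC3, AOC3-LN, AOC11 and AOC11-LN, with little spread. Hspb11 was at 11.5, 8.04, 19.5 and 20.6 FPKM, a log2 difference of -0.91. Hspb3 was listed at 0 in every line, and Cryaa, the lens partner of Cryab, did not exceed 0.635 FPKM.

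**Figure D3:**
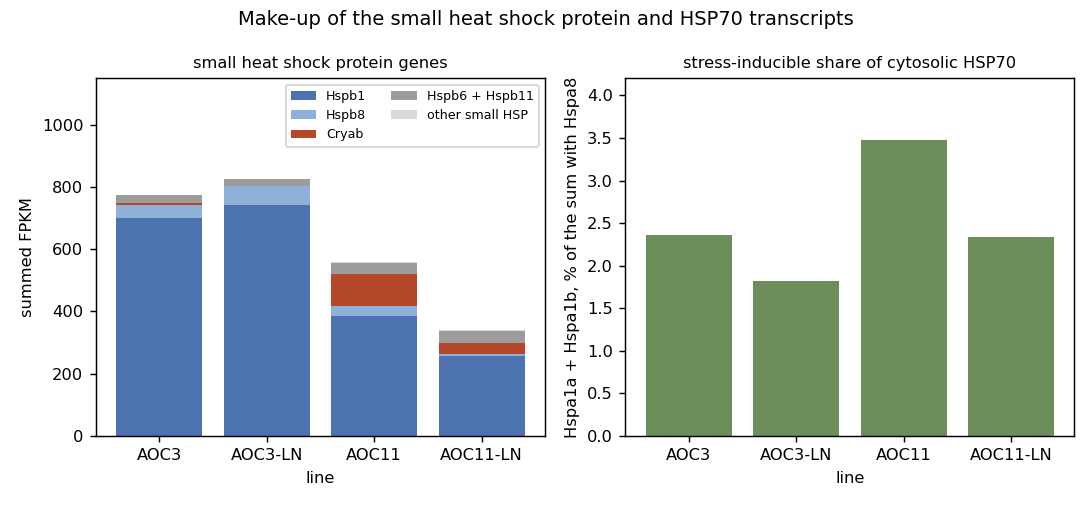
The left panel stacks the FPKM levels of the small heat shock protein genes in each line, and the right panel gives the level of Hspa1a plus Hspa1b as a percent of their sum with Hspa8, 1 bar per library. Cryab fills 18.1% and 10.1% of the bars of AOC11 and AOC11-LN and under 1% of those of AOC3 and AOC3-LN, and the stress-inducible share of HSP70 runs from 1.82% to 3.47%.

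Hspa8 was the most abundant member. It lies at chr9:40800984-40810087 on the plus strand (ENSMUSG00000015656.17), and its level was 2496, 2555, 1884 and 2076 FPKM in AOC3, AOC3-LN, AOC11 and AOC11-LN. The log2 difference was 0.38, with the AOC3 lines somewhat above the AOC11 lines. Of its 100-base stretches, 28.5% occur in 9 other genes. The most abundant of these was the copy Gm15459, listed at 283, 292, 200 and 242 FPKM in the same order of lines.

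The stress-inducible HSP70 genes lay close together in all lines. Hspa1a (chr17:34969190-34972156, minus strand, ENSMUSG00000091971.3) was at 15.9, 13.1, 15.6 and 12.8 FPKM in AOC3, AOC3-LN, AOC11 and AOC11-LN. Hspa1b (chr17:34956436-34959238, minus strand, ENSMUSG00000090877.3) was at 44.4, 34.4, 52.2 and 37.0 FPKM. In both genes the lymph node line was the lower of each pair and the lines of the mice overlapped. The log2 differences between the mice were 0.12 and -0.11, and those between the lymph node and primary lines were -0.18 and -0.27 for Hspa1a and -0.36 and -0.47 for Hspa1b, mouse 3 first. The genes lie 9951 bases apart and their transcripts were identical at 94.0% of 2688 aligned bases. Since 47.1% of the 100-base stretches of Hspa1a also occur in Hspa1b, the split of reads between them is uncertain. The sum is firmer than either value alone, but it is uncertain too. Gm20481 holds 13.0% of the stretches of Hspa1a on the opposite strand. It was listed at 12.5, 10.2, 8.24 and 9.77 FPKM in AOC3, AOC3-LN, AOC11 and AOC11-LN. The sum of Hspa1a and Hspa1b was 60.2, 47.4, 67.8 and 49.8 FPKM in AOC3, AOC3-LN, AOC11 and AOC11-LN. It made up 2.36%, 1.82%, 3.47% and 2.34% of the sum with Hspa8.

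Of the HSP70 co-chaperones, Dnajb1, the J-domain partner, varied little. It lies at chr8:83608193-83612653 on the plus strand (ENSMUSG00000005483.10) and was at 20.2, 22.7, 28.3 and 26.7 FPKM in AOC3, AOC3-LN, AOC11 and AOC11-LN. The log2 difference was -0.28, with the AOC11 lines slightly above the AOC3 lines. Hsph1, the HSP110 exchange factor, varied more. It lies at chr5:149614287-149636376 on the minus strand (ENSMUSG00000029657.15) and was at 136, 190, 83.7 and 70.5 FPKM in AOC3, AOC3-LN, AOC11 and AOC11-LN. Both AOC3 lines were above both AOC11 lines, and the log2 difference was 1.07. It was 0.94 without AOC11-LN and 0.85 without AOC3-LN, so either line decided whether it passed 1 log2 unit. The ratio of Hspa8 to Hsph1 level was 18.3 in AOC3 and 13.5 in AOC3-LN, against 22.5 in AOC11 and 29.4 in AOC11-LN.

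Between the mice, 5 of the 10 members differed by more than 1 log2 unit, compared with 11.1% of all genes. Hspb1, Hspb8 and Hsph1 were higher in the AOC3 lines, as were 5.1% of all genes, and Cryab and Hspb2 were lower, as were 6% of all genes. The median difference was 0.00 over the members and 0.01 over all genes. In 7 of the 10 members the lines of one mouse did not overlap those of the other, compared with 53.1% of all genes. The exceptions were Bag3, Hspa1a and Hspa1b. Between the primary lines 2 members passed 1 log2 unit, Cryab and Hspb2, both lower in AOC3, compared with 11.9% of all genes in either direction and 5.69% lower. Between the lymph node lines 4 did, compared with 16.3% of all genes, with Hspb1, Hspb8 and Hsph1 higher and Cryab lower in AOC3-LN. Of all genes, 7.57% were higher and 8.69% lower there. These comparisons share libraries and are not independent of each other. The members were chosen with their levels known, so the counts beside those of all genes are a description and no test. Hspb2, counted between the mice and between the primary lines, passed the filter only through AOC11, where it was highest.

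Within mouse 3, Cryab alone among the members differed by more than 1 log2 unit between the lymph node and primary lines, compared with 5.53% of all genes in either direction and 3.42% lower. Within mouse 11, Cryab, Hspb2 and Hspb8 did, all lower in AOC11-LN, compared with 8.1% of all genes in either direction and 3.14% lower. Hspb2 passed the filter only through AOC11, the higher line of this pair. It fell short of 1 log2 unit there under other scalings, with -0.997 without quantile normalization and -0.993 with scaling by the median. The median over the members was 0.06 in mouse 3 and -0.37 in mouse 11, and over all genes it was 0.02 and -0.02. Hspb1 differed by 0.12 in mouse 3 and -0.58 in mouse 11, and Hsph1 by 0.44 and -0.25. The lymph node lines of the mice departed from the primary lines in opposite directions in 5 members, compared with 51.9% of all genes.

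**Figure D4:**
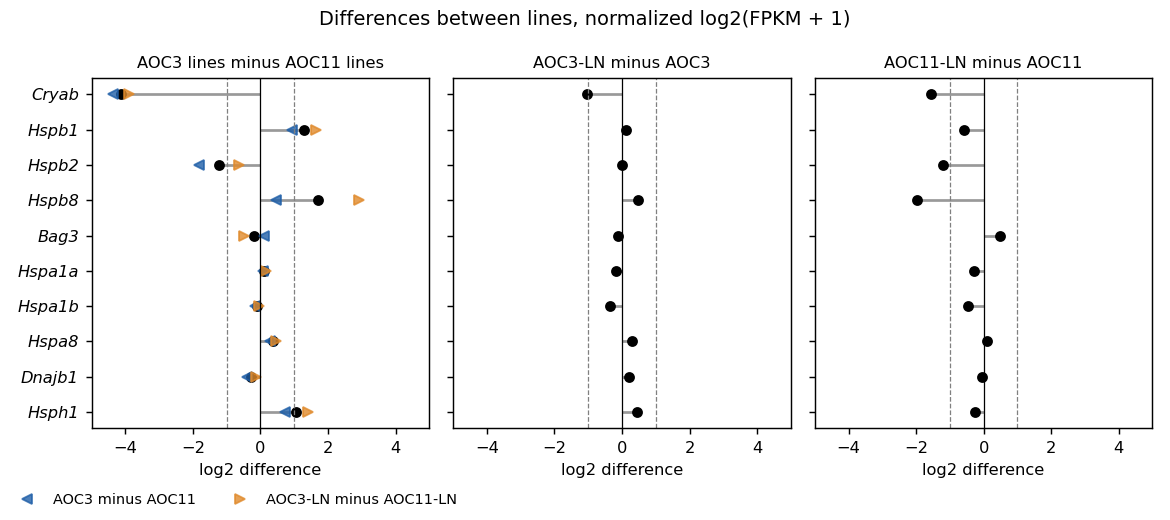
The plot gives the difference of normalized log2(FPKM + 1) for each gene, as black points, between the mice (left), in mouse 3 (middle) and in mouse 11 (right), with dashed lines at 1 log2 unit and triangles for the primary and lymph node lines taken alone. Cryab lies at -4.13, -1.05 and -1.55, and Hspb8 is at 0.47 in mouse 3 but -1.98 in mouse 11.

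HSF1, the main heat shock factor, binds inverted repeats of GAA, so the promoters were searched for the pairs GAANNTTC and TTCNNGAA. Each pair reads the same on both strands. The RefSeq windows (GRCm38.p6) ran from 250 bases before to 50 bases after the start of transcription, and 7 of the 10 members had one. Cryab, Hspb2 and Hspa8 were not analysed here. A pair was found in 6 of the 7 members, compared with 17.0% of 27025 genes, and the exception was Dnajb1. The stretches that hold the pairs are shown because they let the members with different patterns over the lines be set side by side. Pairs stand in capitals and the strand of the gene is given.
Hspb1 upstream, chr5:135887776-135887835, plus strand: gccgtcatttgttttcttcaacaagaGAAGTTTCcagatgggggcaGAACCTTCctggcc
Hspa1a upstream, chr17:34972227-34972286, minus strand: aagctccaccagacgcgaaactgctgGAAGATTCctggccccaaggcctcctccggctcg
Hspa1b upstream, chr17:34959309-34959368, minus strand: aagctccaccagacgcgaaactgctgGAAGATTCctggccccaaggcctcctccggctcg
Hspb8 after the start, chr5:116422844-116422873, minus strand: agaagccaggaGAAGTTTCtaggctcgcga
Bag3 after the start, chr7:128523614-128523632, plus strand: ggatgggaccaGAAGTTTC
Hsph1 after the start, chr5:149636287-149636311, minus strand: aatgctgcagaTTCTGGAAAGTTCt

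The stretches of Hspa1a and Hspa1b were identical, and their 250 upstream bases differed at 3 positions. Hspb1, Hspb8 and Bag3 each held the pair GAAGTTTC, upstream in Hspb1 and after the start in Hspb8 and Bag3. Hsph1 held another pair upstream of its RefSeq starts, which lies inside the gene span given above. After the start it held the run of 3 repeats TTCTGGAAAGTTC. Runs of this kind, in which a pair is followed after 2 bases by a further GAA or TTC in the opposite sense, were found in 0.662% of genes. Members with a pair included Hspb1, Hspb8 and Hsph1, all higher in mouse 3, and Hspa1a, Hspa1b and Bag3, which overlapped between the mice. A pair is a match of letters and was not measured as a bound site.

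The members were set among lists of other chaperone genes. The lists were written by hand, and counts are of genes past 1 log2 unit between the AOC3 and AOC11 lines, which 11.1% of all genes passed with a median of 0.01. Of the 11 genes listed as small heat shock proteins, 6 passed the filter, 2 were higher and 2 lower, and all 4 were members. Of 12 HSP70 and HSP110 genes past the filter, Hsph1 alone was higher and none was lower, with a list median of 0.23. No gene passed 1 log2 unit among 13 HSP40 genes, 10 BAG and related exchange factors, 17 HSP90 and co-chaperone genes and 10 chaperonin genes. None did among the 3 genes of the heat shock factor list, which were Hsf1, Hsf2 and Hsbp1. The medians of these lists were 0.02, 0.02, 0.09, 0.02 and 0.26, in the order given. The largest differences in these lists were 0.89 for Dnaja4, -0.77 for Bag6, 0.89 for Trap1, 0.55 for Cct8 and 0.37 for Hsf1. Hsf1 was at 55.0, 48.7, 42.2 and 40.5 FPKM in AOC3, AOC3-LN, AOC11 and AOC11-LN.

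The endoplasmic reticulum list had 21 genes past the filter and a median of -0.08. Atf6 and Ddit3, both of the unfolded protein response, were higher in the AOC3 lines by 1.17 and 1.10, and none was lower. Among 8 autophagy partners of Bag3 and Hspb8 past the filter none passed 1 log2 unit, and the largest difference was -0.93 for Map1lc3a. Intermediate filaments, which small heat shock proteins bind, differed more, with a median of 1.23 over 6 genes. Krt5, a basal keratin, was at 499, 275, 4.99 and 17.0 FPKM in AOC3, AOC3-LN, AOC11 and AOC11-LN, a difference of 5.19. Nes and Vim were also higher in the AOC3 lines, by 3.80 and 1.96. The abundant keratins Krt18 and Krt8 differed little, by 0.50 and 0.11, and Krt14 went the other way, with -0.69. Immediate early genes, which respond to handling and to stress, had a median of 0.77 over 11 genes, with Fos, Atf3 and Dusp1 higher by 1.01, 1.08 and 2.10. That median was 0.49 without AOC3-LN and 0.54 without AOC11-LN. Their medians for the lymph node against the primary line were 0.40 in mouse 3 and -0.66 in mouse 11, with the same signs as Hspb1, Hspb8 and Hsph1, and their part in the levels of these genes was not tested.

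**Figure D5:**
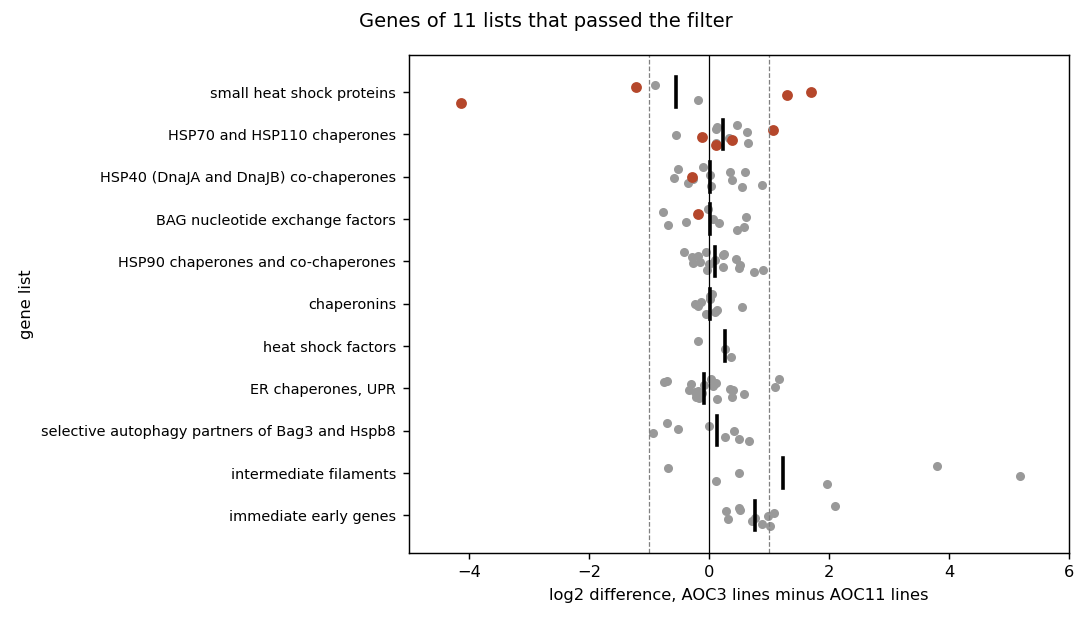
Each point is the log2 difference of 1 gene between the AOC3 and AOC11 lines, by gene list, for genes that passed the filter, with members in red, list medians as black bars and dashed lines at 1 log2 unit. The HSP40, BAG, HSP90 and chaperonin genes lie within 1 log2 unit of 0, while Cryab lies at -4.13 among the small heat shock proteins.

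Markers of other cell types were compared with Cryab over the lines. In bulk RNA, fewer cells of a type and less RNA per cell cannot be told apart. The 7 macrophage markers summed to 21.3, 17.8, 33.8 and 16.8 FPKM in AOC3, AOC3-LN, AOC11 and AOC11-LN, and 3 of them reached 1 FPKM. Of these, Csf1r followed the order of Cryab with 0.995, 0.435, 20.8 and 6.01 FPKM. Cd68 was higher in the AOC3 lines, with 13.0, 8.79, 6.15 and 4.45 FPKM, and Cd14 varied little, with 7.31, 8.55, 6.83 and 6.27 FPKM. The log2 differences between the mice were -2.81 for Csf1r, 1.01 for Cd68 and 0.31 for Cd14, so the 3 did not share a direction. Their relation to the Cryab level was not tested. The defining markers Adgre1, Ptprc, Lyz2 and Itgam were at 0 or near it, with the highest value 0.0640 FPKM for Ptprc. Of 11 muscle markers with an entry, Acta2 alone reached 1 FPKM, at 5.79 in AOC11 and 6.97 in AOC11-LN against 0.0445 and 0.00156 in the AOC3 lines. The skeletal muscle markers Myod1, Myog and Ckm, and also Des, did not exceed 0.145 FPKM. Of the smooth muscle markers other than Acta2, Cnn1 was at 0.386, 0.180, 0.747 and 0.202 FPKM in AOC3, AOC3-LN, AOC11 and AOC11-LN. Tagln and Myh11 did not exceed 0.168 FPKM. Summed muscle markers ranged from 0.480 to 7.45 FPKM. The 7 T cell markers summed to 0.965 to 2.13 FPKM, nearly all of it Trac, and 4 of them were at 0 in every line.

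The genes with the pattern closest to Cryab were taken by distance between centered log2 values over the 4 lines. They were Gm16567 at 0.52, Gm22232 at 0.81, Il18r1 at 0.99, C1s1 at 1.0 and Arhgdib at 1.02 log2 units. Il18r1 encodes a subunit of the interleukin-18 receptor and C1s1 a complement protease. Il18r1 was at 1.33, 0.187, 22.4 and 9.0 FPKM in AOC3, AOC3-LN, AOC11 and AOC11-LN. C1s1 was at 0.249, 0.0257, 50.3 and 22.5 FPKM, and Arhgdib at 0.893, 0.0957, 48.8 and 33.1 FPKM. All 3 shared with Cryab the order AOC11, AOC11-LN, AOC3 and AOC3-LN, an order held by 1282 genes (9.06%). With 4 libraries such likeness is common, and 887 genes (6.27%) had a correlation above 0.95 with Cryab. Gm16567 is annotated as an antisense RNA and Gm22232 as a microRNA gene, whose FPKM rests on a short transcript.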

How the data were processed

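RNA of 4 cultured lines, 1 library each, was sequenced as paired 100-base reads from strand-marking libraries of mRNA. The authors trimmed reads with Trim Galore, mapped them to mm10 with TopHat2 and used Cufflinks at its default parameters to estimate FPKM for the GENCODE M21 genes (versions are not given in the sources used here). The deposited values were FPKM without further normalization. The table held 34721 entries for 34685 gene identifiers, all matched to GENCODE M21, and the entry of widest span was kept for the 29 genes listed more than once.

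In Python 3.11.15 with pandas 2.3.3 and numpy 2.4.6, log2(FPKM + 1) was quantile-normalized over all entries, and genes below 1 FPKM in every line were dropped. A difference past 1 log2 unit was counted. Fragment numbers were estimated from steps in low FPKM values of transcripts of at least 800 bases, and intervals cover counting error only.

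Named by rule were all members, genes of the chaperone lists past 1 log2 unit or the largest of such a list, genes within 50 kb of Cryab, the 5 genes closest to it in pattern and the highest marker of each cell type. Other members of a list or marker panel were named after their values were seen. The members and the 18 gene lists were chosen with earlier results of these data known. Alternatives were a pseudocount of 0.1, no quantile normalization, scaling by the median, no filter, a filter of 5 FPKM, coding genes only, a 1.5-fold threshold and leaving out each line.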

Additional observations from a re-analysis of the deposited data

Results flagged for a closer look

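Of the 10 members, 5 differed between the lymph node and the primary line in opposite directions in the 2 mice. That is close to the share among all genes, 51.9%, so the count does not set the members apart. With 1 library per line, the difference between the mice was not tested. Hspb8 had the widest gap, with a log2 difference of 0.47 in mouse 3 and -1.98 in mouse 11. Hspb1 differed by 0.12 in mouse 3 and -0.58 in mouse 11, and Hsph1 by 0.44 and -0.25. Dnajb1 differed by 0.21 and -0.055. Bag3 went the other way, with -0.11 in mouse 3 and 0.49 in mouse 11. Within mouse 11, Hspb8 alone of these 5 passed 1 log2 unit.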

How the results depend on the processing

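No paired analysis was possible because no test was made. The lines are tied by mouse, and each lymph node line was set against the primary line of its mouse as a description. The filter, the restriction to coding genes and the fold threshold cannot alter the difference of a member and say nothing of its stability. Hspb2 moved most, to -3.69 between the mice and -2.04 in mouse 11 at a pseudocount of 0.1, and to -0.62 between the mice without AOC11. In mouse 11 it was at -0.997 without quantile normalization and -0.993 with median scaling, so that 2 members passed 1 log2 unit there in place of 3. At a filter of 5 FPKM Hspb2 had no value. Bag3, Hspa1a and Hspa1b, all near 0, changed sign under 1, 1 and 2 of the settings. Leaving out 1 line left 3 to 5 members past 1 log2 unit between the mice. Without AOC11-LN, 3 remained, since Hspb8 was at 0.71 and Hsph1 at 0.94, and without AOC11 Hspb8 was at 2.69. Without AOC3-LN Hsph1 was at 0.85, and without AOC11 Hspb2 was short of the threshold. The genes past the threshold were 1572 between the mice, 783 in mouse 3 and 1147 in mouse 11. They were 2624, 1441 and 2070 at a pseudocount of 0.1 and 3812, 1946 and 3477 at 1.5-fold. Among coding genes they were 473 in mouse 3 and 688 in mouse 11. Leaving out 1 line gave 1456 to 1955 between the mice.

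The median of the heat shock factors was 0.28 at a pseudocount of 0.1, 0.18 without quantile normalization and 0.0037 without a filter. Without quantile normalization the HSP40 list was at -0.050, the endoplasmic reticulum list at -0.15 and the intermediate filaments at 1.13, and with median scaling the HSP90 list was at 0.13. Without a filter the small heat shock proteins were at -0.18, the HSP70 and HSP110 genes at 0.12 and the intermediate filaments at 0.15, and at 5 FPKM the small heat shock proteins were at -0.18 and the HSP40 list at -0.031. A filter changes which genes are in a list. The cause of the other moves was not tested. Leaving out 1 line gave ranges of -0.70 to -0.39 for small heat shock proteins, 0.18 to 0.28 for HSP70 and HSP110, 1.16 to 1.30 for intermediate filaments, 0.49 to 1.12 for immediate early genes, -0.055 to 0.072 for HSP40, -0.061 to 0.16 for BAG, 0.062 to 0.16 for HSP90, -0.088 to 0.14 for chaperonins, 0.19 to 0.32 for heat shock factors, -0.041 to 0.087 for the endoplasmic reticulum list and -0.30 to 0.47 for autophagy partners. Depth limits Cryab in AOC3-LN and Hspb2 in every line.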

Other observations

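Cryab was 1 of 22 genes lower by more than 1 log2 unit in the AOC3 lines and again in both lymph node lines. They were 0.155% of the genes past the filter. These conditions were set with the values of Cryab known, so the count is a description and no test. In mouse 3 Cryab passed only just, at -1.05, with about 23.7 fragments in AOC3-LN. Named after their values were seen, the others of the 22 genes included Cxcl5, a neutrophil-attracting chemokine, Glrx, a glutaredoxin, Pgf, a placental growth factor, and Vgll3, a transcription cofactor.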
